A study of Homo sapiens with 15 samples.

Results

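The interferon-stimulated genes and their regulators examined here are 39 genes listed by name. The list uses no measured value as a threshold, but it was drawn up with earlier results of these data known. All 39 were listed for MRC5 and 38 for H196, out of 17138 genes listed for either line, and OAS2 was the member not listed for H196. MRC5 is a human lung fibroblast line, H196 a non-neuroendocrine small cell lung cancer (SCLC) line and H69 a neuroendocrine SCLC line. The methods give MEM medium for MRC5 and RPMI medium for the SCLC lines, and do not name the medium of the co-cultures. In comparisons between lines, the parts of line and medium cannot be told apart. MRC5 cells were grown alone (MRC5_Mo), with H69 (MRC5_CoH69) or with H196 (MRC5_CoH196), and H196 cells were grown alone (H196_Mo) or with MRC5 (H196_Co), for 7 days with the partner behind a transwell membrane of 0.4 µm pores. Each of the 5 groups had 3 libraries of poly(A) RNA, 15 in all. H69 cells themselves were not among the libraries, each condition rests on 1 fibroblast line, and no group received interferon. The labels do not say whether the libraries of a group came from separate cultures, so the p-values measure the spread between these libraries only.

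Interferons are secreted proteins that cells release on sensing viral nucleic acid or damaged DNA. Type I interferons bind the receptor pair IFNAR1 and IFNAR2, and the kinases JAK1 and TYK2 then activate STAT2, which acts with IRF9 in a complex that binds the interferon-stimulated response element (ISRE). Type II interferon acts through the gamma-activated site (GAS), and IRF1 is among its first targets. The induced genes block viral entry, translation and RNA stability, and some of them sense nucleic acid or dampen the response again. Fibroblasts are among the classical producers of type I interferon.

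The response element is shown first, because it is the sequence that most of these genes have in common. RefSeq promoters on GRCh38.p14, from 250 bases before to 50 bases after a gene's start, were at hand for 31 of the 39 members, some with several starts. IFIT2, IFITM2, IRF7, MX2, OAS2, OASL, TRIM22 and USP18 had no entry. The ISRE core GAAANNGAAA, searched on both strands, was found in 22 of the 31 genes (71.0%) and in 4.38% of all 27305 genes with a promoter in the same table. The GAS core TTCNNNGAA, which reads the same on both strands, was found in 10 of the 31 (32.3%) and in 9.38% of all genes. The stretches that follow run over the 160 bases before the start. They are those of 6 members that were higher in MRC5_CoH196 than in MRC5_Mo (IFIT1, IFIT3, IFI6, IFI27, BST2, ISG20), of 2 that were lower (GBP1, OAS3) and of IRF1, which differed between the fibroblasts of both co-cultures. Capitals mark the ISRE core, and in IRF1 the GAS core.
IFIT1 (chr10:89392463-89392622, plus strand): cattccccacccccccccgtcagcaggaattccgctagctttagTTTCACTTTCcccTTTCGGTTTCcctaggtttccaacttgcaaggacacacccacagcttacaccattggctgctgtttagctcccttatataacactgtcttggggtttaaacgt
IFIT3 (chr10:89327837-89327996, plus strand): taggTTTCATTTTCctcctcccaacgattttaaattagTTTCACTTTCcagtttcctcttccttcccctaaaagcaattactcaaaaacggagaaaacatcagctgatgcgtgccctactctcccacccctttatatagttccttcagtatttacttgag
IFI6 (chr1:27672193-27672352, minus strand): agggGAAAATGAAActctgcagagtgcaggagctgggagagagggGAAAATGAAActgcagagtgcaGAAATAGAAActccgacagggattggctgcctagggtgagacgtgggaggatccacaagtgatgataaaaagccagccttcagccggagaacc
IFI27 (chr14:94110576-94110735, plus strand): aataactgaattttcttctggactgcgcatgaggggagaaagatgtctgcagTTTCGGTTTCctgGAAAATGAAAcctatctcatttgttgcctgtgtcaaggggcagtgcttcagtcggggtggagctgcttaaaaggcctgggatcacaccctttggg
BST2 (chr19:17405631-17405790, minus strand): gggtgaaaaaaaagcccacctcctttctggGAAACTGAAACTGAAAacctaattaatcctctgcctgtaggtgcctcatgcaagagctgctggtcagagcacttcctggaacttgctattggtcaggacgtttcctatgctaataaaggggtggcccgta
ISG20 (chr15:88638856-88639015, plus strand): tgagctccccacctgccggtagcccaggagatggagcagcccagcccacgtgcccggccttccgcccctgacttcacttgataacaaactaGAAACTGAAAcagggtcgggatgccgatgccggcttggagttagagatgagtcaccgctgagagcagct
GBP1 (chr1:89065209-89065368, minus strand): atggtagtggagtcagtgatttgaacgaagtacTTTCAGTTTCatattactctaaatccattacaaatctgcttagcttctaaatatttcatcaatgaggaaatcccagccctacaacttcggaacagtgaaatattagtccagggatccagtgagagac
OAS3 (chr12:112938314-112938473, plus strand): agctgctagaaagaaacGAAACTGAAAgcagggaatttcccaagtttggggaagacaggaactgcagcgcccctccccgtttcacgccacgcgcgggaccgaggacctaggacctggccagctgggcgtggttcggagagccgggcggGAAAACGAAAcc
IRF1 (chr5:132490774-132490933, minus strand): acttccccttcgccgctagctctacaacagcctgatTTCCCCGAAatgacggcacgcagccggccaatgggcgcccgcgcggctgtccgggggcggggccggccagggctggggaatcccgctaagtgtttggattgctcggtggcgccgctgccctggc

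Pairs of cores stood close together in IFIT1 and IFI27, and in BST2 the pair overlapped. The stretch of GBP1 held 1 core and that of OAS3 2, so the letters were present in promoters of genes that moved in either direction. Members called higher in MRC5_CoH196 held the ISRE core in 8 of the 8 genes with an entry, members called lower in 3 of 5 (GBP1, OAS3 and PARP9, not HERC6 or IFI35), and tested members that were not called in 8 of 14. MX1 had the ISRE core before 1 of its starts and after another. In IFI27, BST2, MX1 and IFITM1 a GAS core overlapped an ISRE core. These matches describe letters in a window and say nothing of binding.

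Library totals ran from 16073597 to 19170560 counts. The 3 counts taken here as an approximate upper limit for a count of 0 correspond to 0.156 to 0.187 CPM (read counts scaled to the size of the library). Intervals and limits of this kind cover counting error only. The fibroblast markers summed to 2570 to 6150 FPKM (fragments scaled to gene length and library size) in the MRC5 libraries and to at most 0.64 in the H196 libraries. The sum was lower in MRC5_CoH196 (2570 to 2720) than in MRC5_Mo (5180 to 5780), with all 10 markers still expressed. COL1A1, which encodes a chain of type I collagen, stood at 2520 to 2730 FPKM in MRC5_Mo and at 739 to 810 in MRC5_CoH196, and the drop in the sum lay mainly in COL1A1, COL1A2 and COL3A1. Of the 10 markers, COL1A1 and COL3A1 were called lower and PDGFRB higher. Without overlap, 5 lay lower (COL1A2, THY1 and POSTN besides) and 3 higher (LUM and PDGFRA besides), and the list's median log2 fold change was 0.04. Neuroendocrine markers summed to 0.26 to 0.61 FPKM in every MRC5 library and to 12.7 to 13.7 in H196, where SYP and DLL3 were expressed and NCAM1 was at 0 in H196_Mo. Of the leukocyte markers, which summed to 41.0 to 82.6 FPKM, 1 was expressed in either line, CD68 (40.7 to 82.3 FPKM), while PTPRC, which defines leukocytes, was at 0.05 FPKM or less in MRC5 and not listed for H196. CD68 was called higher in MRC5_CoH196 than in MRC5_Mo, and the leukocyte sum went from 51.9 to 58.1 up to 75.2 to 82.6 FPKM. All 5 markers of non-neuroendocrine SCLC were expressed in both lines, and they summed to 4880 to 5080 FPKM in MRC5_Mo, 4460 to 4590 in MRC5_CoH69, 6580 to 6840 in MRC5_CoH196, 3260 to 3540 in H196_Mo and 3560 to 3770 in H196_Co. All 5 lay higher in MRC5_CoH196 than in MRC5_Mo without overlap, and VIM was called. The 6 epithelial markers summed to 107 to 113 FPKM in MRC5_Mo, 130 to 145 in MRC5_CoH69, 110 to 117 in MRC5_CoH196, 179 to 189 in H196_Mo and 205 to 233 in H196_Co, with KRT18 the highest in every group and CDH1 at 0 in both monocultures. KRT7, KRT8 and KRT19 were called higher in MRC5_CoH196 than in MRC5_Mo, and KRT18 lay lower. The part of these differences in the results was not tested. In bulk libraries fewer cells of a type and less RNA per cell cannot be told apart.

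In the fibroblasts grown alone, the membrane proteins of the IFITM family held the highest levels. IFITM3 (1060 ± 42.7 FPKM, SD, n = 3) and IFITM2 (286 ± 10.3) led, followed by ISG15 (59.4 ± 2.42) and IFITM1 (58.2 ± 3.3), whose levels differed by less than their spread. IFI16 (38.2 FPKM), TRIM22 (31.0), GBP1 (25.8) and STAT2 (23.2) came next. IFIT1, IFIT2 and MX1, which interferon raises from very low levels in many cell types, stood at 1.53, 1.5 and 1.37 FPKM. RSAD2 had at most 1 count in every library of both lines. With HERC5, OAS1, OAS2 and IFI44L it made up the 5 members too low in MRC5 to be tested, which left 34.

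The libraries of MRC5_CoH196 differed among themselves in many of these genes. Replicate 2 was the highest of its group for 28 of the 34 tested members (82.4%, against 34.3% of all 12819 tested genes), and replicate 3 was the lowest for 25 (73.5%, against 31.8%). In MRC5_Mo, replicate 1 was the highest for 21 members (61.8%, against 35.8% of all genes) and replicate 3 the lowest for 18 (52.9%, against 34.7%). In MRC5_CoH69, replicate 3 was the highest for 18 (52.9%, against 36.6%). The ratio of the highest to the lowest library within MRC5_CoH196 was 4.39 for IFIT2, 3.98 for OASL, 3.5 for IFIT1, 3.11 for HERC6 and 2.85 for MX1, and 1.03 for GBP1 and 1.07 for IRF1. In MRC5_Mo it was 1.62 for IFIT2, 1.3 for IFIT1 and 1.03 for MX1. Some members had a wider gap in MRC5_Mo than in MRC5_CoH196, such as MX2 (1.6 against 1.5), XAF1 (1.52 against 1.45) and IRF1 (1.2 against 1.07). Replicate 2 held 18476890 counts and replicate 3 19170560, and the part of library size in this spread was not tested. Calls that rest on either library are given with and without it.

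**Figure D1:**
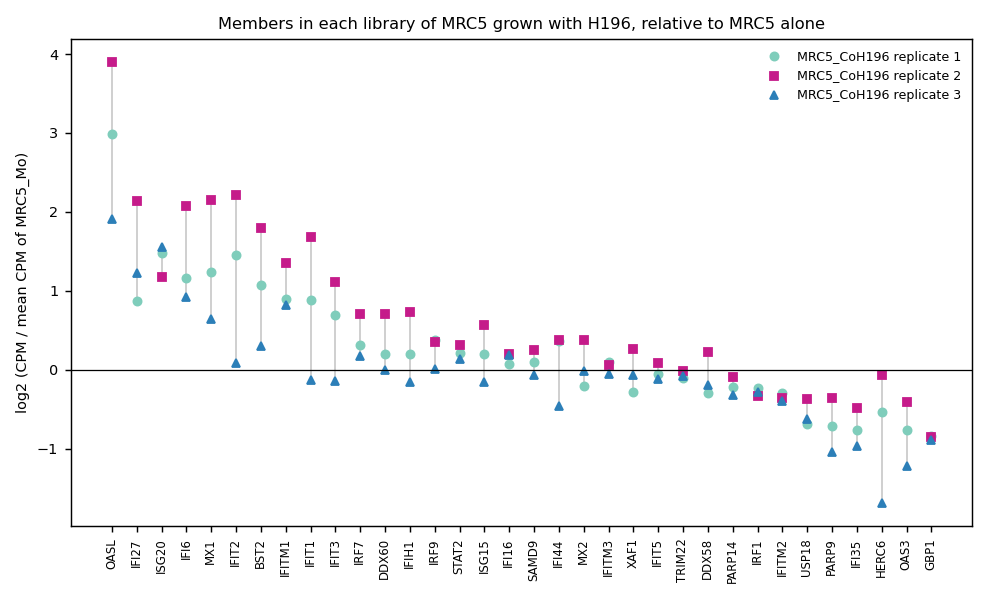
Level of each of the 34 tested members in the 3 libraries of MRC5 grown with H196, as log2 of the library's CPM over the mean CPM of MRC5_Mo, with genes ordered by their mean. Replicate 2 lies on top for 28 of the 34 genes and replicate 3 at the bottom for 25, while for GBP1, at the right end, the 3 points coincide.

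MRC5 with H196 against MRC5 alone. The comparison asks how fibroblasts differ after growth beside a non-neuroendocrine tumor line. The members split: 10 of the 34 tested rose (OASL, IFI27, IFIT2, MX1, IFI6, ISG20, BST2, IFITM1, IFIT1 and IFIT3) and 5 fell (GBP1, OAS3, IFI35, PARP9 and HERC6). A gene was called when its adjusted p in edgeR's quasi-likelihood test was under 0.05 and its absolute log2 fold change above 0.58. By the same rule 31.9% of all tested genes were called, 17.2% higher and 14.7% lower, so the share of members called (15 of 34) has to be read against a large background. OASL, IFI27 and ISG20 had under 10 counts in every MRC5_Mo library and so passed the filter on low values through MRC5_CoH196, so a higher level there was a condition of their being tested. With at least 10 counts required in every library, which also removes BST2, 6 members were called higher and 5 lower. With no size limit 15 were called higher and 9 lower, with a limit of 1 the numbers were 8 and 0, and in DESeq2 they were 9 and 4, without IFIT3 and HERC6. Tested members had a median log2 fold change of 0.145, all tested genes one of -0.003. Without replicate 2 of MRC5_CoH196, 7 members were called higher and 6 lower, and without replicate 3 the numbers were 10 and 2.

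IFIT proteins bind foreign RNA and hinder its translation, and 3 of the 4 members of this family rose in MRC5_CoH196. IFIT2 stood at 5.67, 4.22 and 3.51 CPM in MRC5_Mo and at 12.2, 20.8 and 4.73 CPM in MRC5_CoH196. Its log2 fold change was 1.49 ± 0.29 (SE, adjusted p = 6.61e-05). The lowest co-culture library lay among the monocultures, and the other two lay above all of them. IFIT1 stood at 6.49, 6.20 and 5.01 CPM alone and at 10.9, 18.9 and 5.41 CPM with H196 (log2 fold change 0.99 ± 0.24, adjusted p = 0.000784). IFIT3 stood at 7.92, 8.54 and 8.93 CPM alone and at 13.7, 18.3 and 7.63 CPM with H196 (log2 fold change 0.64 ± 0.18, adjusted p = 0.00238). For both genes the groups overlapped through replicate 3. Leaving out replicate 2 took IFIT1 to 0.46 (adjusted p = 0.0294) and IFIT3 to 0.34 (adjusted p = 0.0643), neither then called, and DESeq2 gave IFIT3 an adjusted p of 0.0529. The same omission took IFIT2 to 0.92 (adjusted p = 0.00159), still called. IFIT5 had a log2 fold change of -0.04 ± 0.07 and did not pass the test.

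ISG15 is a ubiquitin-like protein that is attached to other proteins, by HERC5 among other enzymes, and removed by USP18, which also restrains the type I receptor. The modifier itself stood at 20.4, 20.9 and 19.6 CPM alone and at 23.2, 30.0 and 18.2 CPM with H196, and it did not pass the test (log2 fold change 0.23 ± 0.11, adjusted p = 0.0519). USP18 went the other way, from 8.89, 9.10 and 8.67 CPM to 5.51, 6.90 and 5.75 CPM, with no overlap. Its log2 fold change of -0.55 ± 0.11 (adjusted p = 9.12e-05) stayed just inside the size limit. HERC6, a relative of HERC5, fell from 2.61, 2.64 and 1.96 CPM to 1.65, 2.30 and 0.741 CPM (log2 fold change -0.62 ± 0.26, adjusted p = 0.0322), with overlapping groups. Without replicate 3 the HERC6 value was -0.28 (adjusted p = 0.271), and the call was also lost without replicate 1 of MRC5_CoH196 (adjusted p = 0.0564) or without replicate 1 or 2 of MRC5_Mo (adjusted p = 0.084 and 0.0977) and in DESeq2 (adjusted p = 0.057). HERC5 was too low for this test, at 5, 4 and 3 counts in MRC5_Mo, 4, 2 and 4 in MRC5_CoH69 and 26, 34 and 9 in MRC5_CoH196.

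The OAS enzymes sense double-stranded RNA and make a short nucleotide messenger, and OASL, a relative without that activity, assists the RNA sensor encoded by DDX58. OASL had the largest change of all members. It stood at 0.255, 0.305 and 0.258 CPM in MRC5_Mo, from 5 to 6 counts, and at 2.16, 4.09 and 1.03 CPM in MRC5_CoH196, from 18 to 71 counts. All 3 co-culture libraries lay above all monocultures, at 3.12 ± 0.435 on the log2 scale (adjusted p = 5.7e-07), and at 2.52 without replicate 2. OAS3 fell, from 8.84, 6.81 and 6.66 CPM to 4.37, 5.58 and 3.19 CPM (log2 fold change -0.76 ± 0.15, adjusted p = 9.52e-05), again without overlap. Without replicate 3 it was -0.58 (adjusted p = 0.00187), just under the size limit. OAS1 had at most 8 counts and OAS2 at most 15 in any MRC5 library, and neither was tested. ISG20, an exonuclease that degrades RNA, rose from 0.46, 0.407 and 0.361 CPM to 1.14, 0.921 and 1.20 CPM (log2 fold change 1.39 ± 0.31, adjusted p = 0.00032). Here replicate 3 was the highest library and replicate 2 the lowest, unlike the IFIT genes.

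MX1 and MX2 are dynamin-like GTPases that trap incoming virus, and GBP1 is a guanylate-binding protein best known as a target of type II interferon. MX1 stood at 3.47, 3.46 and 3.56 CPM alone and at 8.24, 15.6 and 5.47 CPM with H196 (log2 fold change 1.48 ± 0.235, adjusted p = 4.17e-06), with every co-culture library above every monoculture. Its value without replicate 2 was 0.97 (adjusted p = 8.12e-06). MX2 had a log2 fold change of 0.07 ± 0.20 and did not pass. GBP1 fell from 65.7, 61.8 and 65.2 CPM to 35.8, 35.6 and 34.6 CPM, the change with the smallest spread of all called members (log2 fold change -0.86 ± 0.05, adjusted p = 7.45e-14). MX1 had fractional counts, as shared reads give, in 5 of the 9 MRC5 libraries.

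None of the RNA sensors was called. DDX60 was at 0.33 ± 0.13 on the log2 scale (adjusted p = 0.0273), IFIH1, which encodes the sensor of long double-stranded RNA, 0.30 ± 0.21 (adjusted p = 0.204) and DDX58 -0.07 ± 0.11 (adjusted p = 0.557).

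Among the membrane proteins, which stop virus at entry (IFITM1, IFITM2, IFITM3) or hold budding particles at the surface (BST2), the 3 IFITM genes parted. IFITM1 rose from 23.2, 20.6 and 21.0 CPM to 40.3, 55.2 and 38.2 CPM (log2 fold change 1.04 ± 0.09, adjusted p = 3.53e-10), without overlap, and it stood at 0.86 without replicate 2. IFITM2 went from 208, 191 and 197 CPM to 162, 155 and 151 CPM (log2 fold change -0.35 ± 0.05, adjusted p = 2.15e-06), below the size limit and without overlap. IFITM3 had a log2 fold change of 0.04 ± 0.05 and did not pass. The near-identical IFITM2 and IFITM3 shared reads, with fractional counts in all 15 libraries, so the division between them is uncertain. BST2 rose from 1.07, 0.458 and 0.413 CPM to 1.36, 2.24 and 0.797 CPM (log2 fold change 1.17 ± 0.375, adjusted p = 0.00708). The groups overlapped, and without replicate 2 the call was lost (0.73, adjusted p = 0.108).

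Of the remaining effectors, IFI6 and IFI27 rose and IFI35 fell. IFI6, which protects cells from death during infection, went from 11.7, 9.25 and 9.49 CPM to 22.6, 42.5 and 19.1 CPM (log2 fold change 1.46 ± 0.19, adjusted p = 1.26e-07), with no overlap. Without replicate 2 it was 1.04 (adjusted p = 2.07e-09). IFI27, a small mitochondrial protein, went from 0.307, 0.254 and 0.464 CPM to 0.625, 1.5 and 0.797 CPM, from 5 to 9 counts to 11 to 26 (log2 fold change 1.49 ± 0.41, adjusted p = 0.00221). IFI35, which pairs with NMI, went from 9.35, 10.5 and 8.46 CPM to 5.57, 6.73 and 4.84 CPM (log2 fold change -0.72 ± 0.12, adjusted p = 7.03e-06), without overlap. The DNA sensor IFI16 was at 0.15 ± 0.05 on the log2 scale (adjusted p = 0.0112), and TRIM22, SAMD9, XAF1 and IFI44 had values between -0.07 and 0.14 that did not pass. IFI44L held 21 counts in replicate 2 of MRC5_CoH196 and 3 to 8 counts in each of the other 8 MRC5 libraries.

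**Figure D2:**
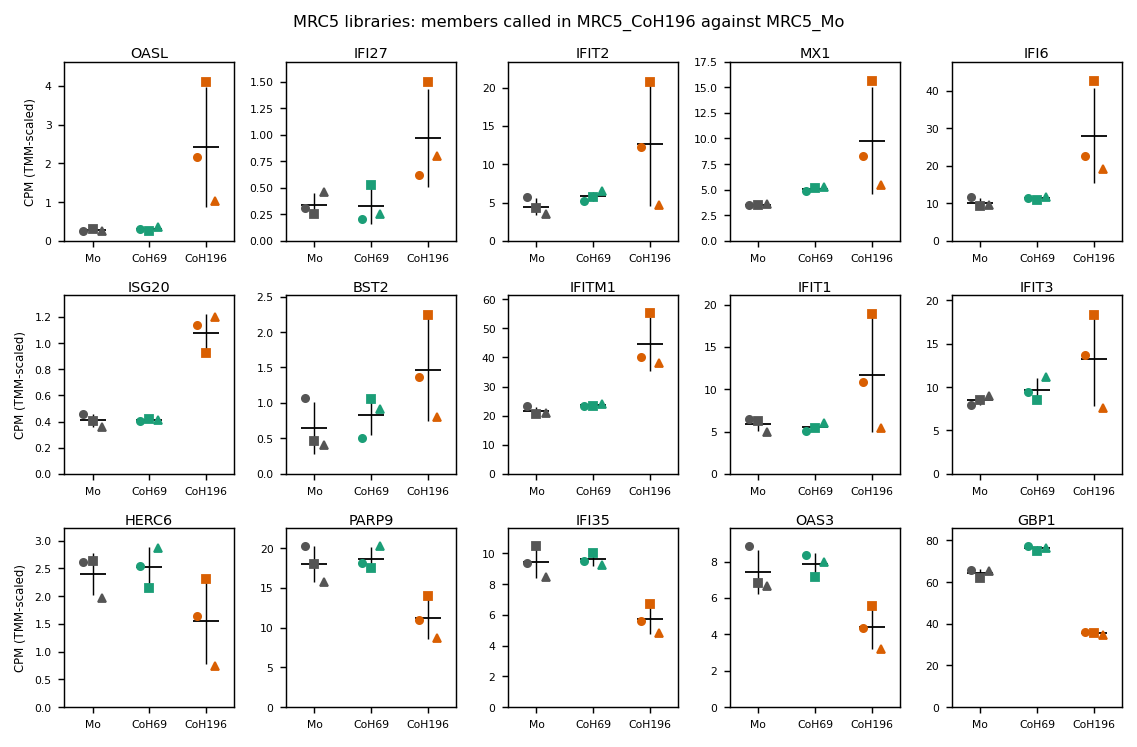
TMM-scaled CPM of the 15 members called between MRC5_CoH196 and MRC5_Mo in each of the 9 MRC5 libraries (circle, square and triangle for replicates 1, 2 and 3), with the mean as a horizontal bar and the SD as a vertical line; each panel starts at 0. The square is the highest MRC5_CoH196 point for all the rising genes but ISG20, and for GBP1 the 3 points lie between 34.6 and 35.8 CPM.

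The transcription regulators moved little. STAT2, the interferon-specific subunit of the ISRE-binding complex, stood at 97.7, 88.1 and 92.8 CPM alone and at 108, 115 and 102 CPM with H196 (log2 fold change 0.22 ± 0.05, adjusted p = 0.000357). Its DNA-binding partner IRF9 stood at 18.9, 17.1 and 17.4 CPM and at 23.1, 22.7 and 17.9 CPM (log2 fold change 0.26 ± 0.08, adjusted p = 0.00838). IRF7, the factor that amplifies type I interferon production, stood at 3.47, 3.81 and 3.61 CPM and at 4.49, 5.93 and 4.10 CPM (log2 fold change 0.41 ± 0.15, adjusted p = 0.0148). IRF1 went down, from 27.5, 28.1 and 23.4 CPM to 22.3, 20.9 and 21.7 CPM (log2 fold change -0.28 ± 0.07, adjusted p = 0.0008). All 4 passed the adjusted p and missed the size limit, but IRF7 no longer passed without replicate 2 (0.24, adjusted p = 0.162), nor IRF9 without replicate 1 (0.19, adjusted p = 0.0668). STAT2, IRF7 and IRF1 did not overlap, and IRF9 did. PARP9, which works with the ligase DTX3L, fell from 20.3, 18.0 and 15.8 CPM to 11, 14 and 8.72 CPM (log2 fold change -0.68 ± 0.12, adjusted p = 1.06e-05), with no overlap, and to -0.53 without replicate 3, inside the limit. PARP14 was at -0.21 ± 0.07 on the log2 scale (adjusted p = 0.0139). Counted over all 34, 8 members were higher and 7 lower without overlap, against 37.7% and 37.9% of all tested genes, and 24 passed the adjusted p, against 74.3%.

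MRC5 with H69 against MRC5 alone. Beside the neuroendocrine line no member was called in either direction, where 0.554% of all tested genes were (0.421% higher, 0.133% lower). DESeq2 called 0 members as well. Of the 34 members, 13 lay above MRC5_Mo without overlap and none below, against 13.6% of all tested genes above and 12.1% below. Members had a median of 0.13 on the log2 scale, all tested genes one of -3.36e-05.

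IRF1, PARP14 and GBP1 passed the adjusted p, as 6.7% of all tested genes did, without reaching the size limit. IRF1 stood at 36.5, 35.3 and 35.8 CPM in MRC5_CoH69, above every monoculture (23.4 to 28.1 CPM), at 0.45 ± 0.06 on the log2 scale (adjusted p = 4.99e-05). GBP1 stood at 77.4, 75.1 and 76.2 CPM (log2 fold change 0.25 ± 0.05, adjusted p = 0.00104). PARP14 stood at 33.1, 34.1 and 36.3 CPM against 31.4, 25.6 and 28.2 CPM (log2 fold change 0.28 ± 0.07, adjusted p = 0.0133). These 3 genes had positive values with H69 and negative ones with H196, and passed the adjusted p both times. MX1 stood at 4.89, 5.13 and 5.23 CPM, above all monocultures, but its log2 fold change of 0.54 ± 0.26 did not pass (adjusted p = 0.245). STAT2 (100, 98.5 and 104 CPM, adjusted p = 0.168) and IRF7 (3.92, 4.08 and 4.36 CPM, adjusted p = 0.561) also lay above MRC5_Mo without passing, and IRF9 (18.9, 20.5 and 18.2 CPM, adjusted p = 0.509) overlapped it. The IFIT genes overlapped MRC5_Mo except IFIT5, and OASL stayed at 5 to 7 counts.

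**Figure D3:**
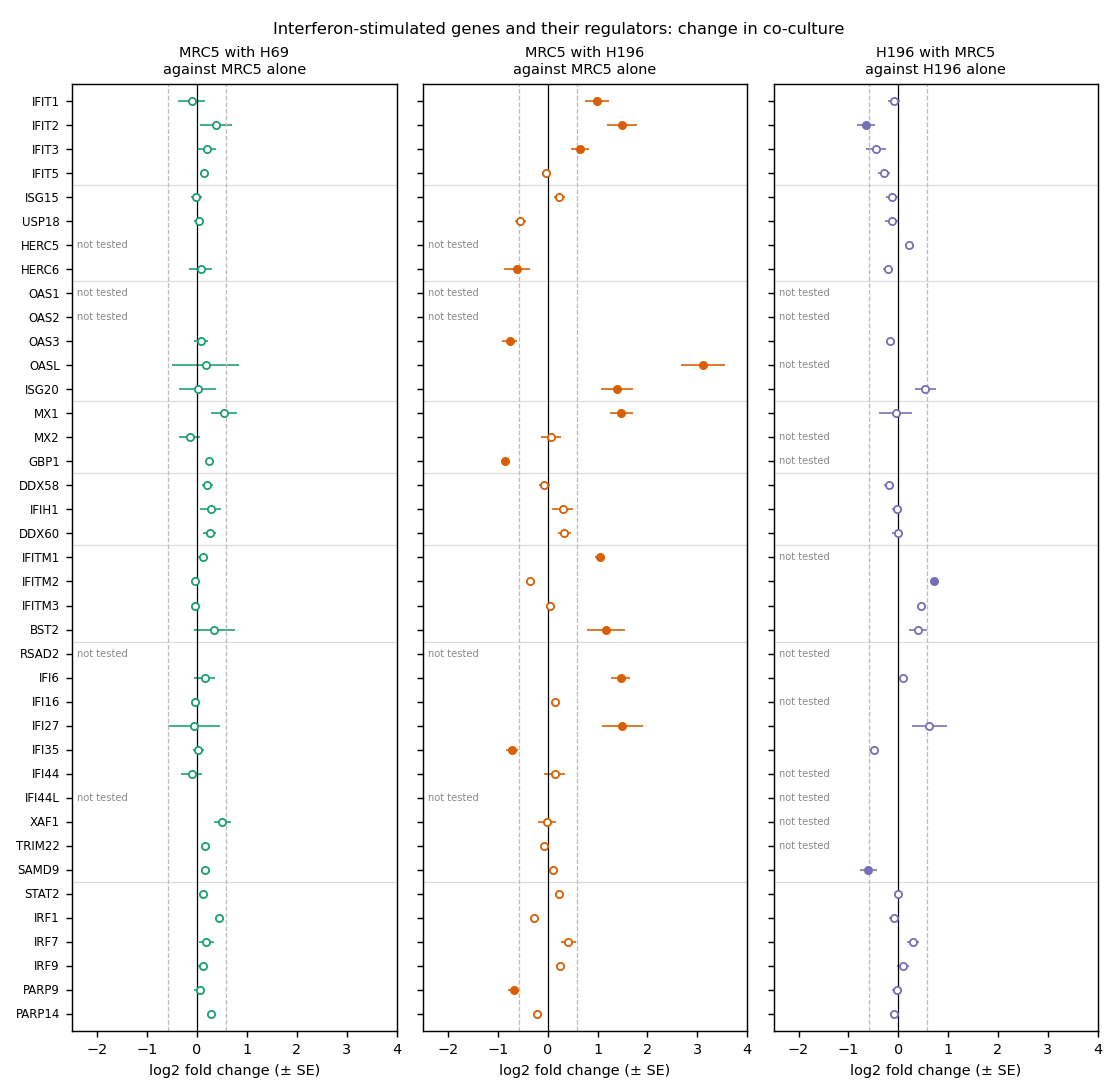
Log2 fold change with its standard error for every member in the fibroblasts with H69, the fibroblasts with H196 and the H196 cells with MRC5, each against the monoculture; filled points were called, dashed lines mark ±0.58, and members that failed the filter on low counts are marked. The middle panel holds 15 filled points on both sides of 0, the left panel none and the right panel 3.

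MRC5 with H196 against MRC5 with H69. The direct test of the partners called 9 members higher and 7 lower in MRC5_CoH196, where 28.2% of all tested genes were called (15.2% higher, 13.1% lower). This comparison shares its MRC5_CoH196 libraries with the first one. OASL (log2 fold change 2.94 ± 0.42, adjusted p = 1.07e-06) and IFI27 (1.55 ± 0.42, adjusted p = 0.00178) had the largest positive values. Here too OASL, IFI27 and ISG20 passed the filter on low values through MRC5_CoH196, so a higher level there was a condition of their being tested. With at least 10 counts required in every library, 5 members were called higher and 7 lower. IFITM1 (0.92 ± 0.09), MX1 (0.94 ± 0.22), IFIT1, IFIT2, IFI6, ISG20 and BST2 were the other members called higher. Without replicate 2 of MRC5_CoH196 the number called higher fell from 9 to 5, with MX1, IFIT1, IFIT2 and BST2 lost. On the lower side, GBP1 (-1.11 ± 0.05, adjusted p = 4.91e-16) was followed by OAS3 (-0.84 ± 0.15), IFI35, PARP9, IRF1 (-0.73 ± 0.07, adjusted p = 5.48e-10), HERC6 and USP18 (-0.60 ± 0.11). IRF1 and USP18 were called here and not against MRC5_Mo. Without replicate 3 of MRC5_CoH196, 4 of the lower calls were left, with PARP9, HERC6 and USP18 lost. BST2 was called with a small margin (adjusted p = 0.041) and lost its call without any of 4 single libraries (replicates 1 and 3 of MRC5_CoH69, replicates 1 and 2 of MRC5_CoH196) and in DESeq2 (adjusted p = 0.0776), which called 8 higher and 7 lower. Replicate 3 of MRC5_CoH69 also decided HERC6 and USP18, and replicate 1 of MRC5_CoH196 USP18. On FPKM values the split was 4 higher and 5 lower with a pseudocount of 1, and 5 higher and 8 lower with one of 0.1.

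H196 with MRC5 against H196 alone. In the tumor cells 27 members passed the filter, and 1 was called higher and 2 lower, where 3.86% of all 12806 tested genes were called (3.26% higher, 0.601% lower). Beside OAS2, the members too low to be tested were OAS1, OASL, MX2, GBP1, IFITM1, RSAD2, IFI16, IFI44, IFI44L, XAF1 and TRIM22, all with at most 10 counts in any H196 library. IFITM2 rose from 63.0, 72.5 and 72.3 CPM to 112, 117 and 110 CPM (log2 fold change 0.71 ± 0.07, adjusted p = 1.06e-06). IFITM3 stood at 101, 132 and 127 CPM alone and at 155, 174 and 166 CPM in co-culture, with no overlap, and passed the adjusted p below the size limit (log2 fold change 0.46 ± 0.09, adjusted p = 0.00104). Reads were shared between both genes here too.

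IFIT2 fell from 3.34, 3.05 and 4.16 CPM to 2.24, 2.40 and 2.07 CPM (log2 fold change -0.65 ± 0.18, adjusted p = 0.0172), without overlap and on 34 to 73 counts. SAMD9, which restricts poxviruses, fell from 3.93, 3.95 and 3.93 CPM to 2.66, 2.94 and 2.19 CPM (log2 fold change -0.60 ± 0.17, adjusted p = 0.0168). Both calls were lost in DESeq2 (adjusted p = 0.0613 and 0.0636) and without replicate 3 of H196_Co (adjusted p = 0.0661 and 0.0859), and that of IFIT2 also without replicate 3 of H196_Mo (adjusted p = 0.107). IFI35 stood at 17.2, 19.3 and 20.3 CPM alone and at 13.9, 13.1 and 13.4 CPM in co-culture (log2 fold change -0.49 ± 0.10, adjusted p = 0.00113). IFIT1 had 7.33, 8.58 and 9.46 CPM alone and 8.05, 7.99 and 7.90 CPM in co-culture and did not pass. Among the regulators, STAT2 (58.9, 57.4 and 61.1 CPM alone and 56.7, 62.8 and 56.9 in co-culture), IRF1 (19.8, 19.3 and 18.3 against 19.6, 17.4 and 17.1) and IRF9 (13, 15.6 and 14.7 against 13, 14.6 and 18.5) overlapped. IRF7 lay higher in all co-culture libraries (8.29, 8.47 and 9.24 CPM against 6.91, 7.46 and 6.90) without passing (adjusted p = 0.0857). Tested members had a median of -0.0531 on the log2 scale, all tested genes one of -0.00146. Without overlap, 6 members lay higher and 7 lower, against 20.2% and 17% of all tested genes.

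The response of both lines compared. The difference between the co-culture change in MRC5 and that in H196 was tested over all 15 libraries. It was called for 13 of 35 members, where 24.7% of 13585 genes were called (12.1% higher and 12.6% lower in MRC5). It was higher in MRC5 for IFIT2, MX1, IFI6, IFIT3, IFIT1 and SAMD9 and lower for IFITM2, PARP9 and OAS3. OASL and HERC5 were called higher and XAF1 and GBP1 lower as well, but each of these 4 entered the test through 1 line only. OASL, GBP1 and XAF1 had at most 7 counts in any H196 library and HERC5 at most 5 in any MRC5_Mo library, so their values rest on few counts. With at least 10 counts required in every library, 5 members were called higher and 3 lower, those named first without MX1. IFITM2 had a difference of -1.08 ± 0.09 (adjusted p = 1.12e-10), with a decrease in the fibroblasts and an increase in the tumor cells. IFIT2 had a difference of 2.11 ± 0.49 (adjusted p = 0.000733), with a rise in MRC5 and a fall in H196. In IFI6 the change in MRC5 was accompanied by 21.6, 22.7 and 23.7 CPM alone and 25.4, 22.9 and 23.9 CPM in co-culture in H196, and the difference was 1.35 ± 0.24 (adjusted p = 3.28e-05). Without replicate 2 of MRC5_CoH196 the call of IFIT1 was lost (0.52, adjusted p = 0.0829), and without replicate 3 those of OAS3 (-0.45) and PARP9 (-0.52). OAS3 was also lost without replicate 1 of MRC5_Mo (-0.49), IFIT3 without replicate 3 of H196_Mo (0.95, adjusted p = 0.0543) and SAMD9 without replicate 3 of H196_Co (0.56). MX1, with 9 to 13 counts in H196, GBP1 and XAF1 each lost the call without any of 4 single H196 libraries, and DESeq2 called neither GBP1 (adjusted p = 0.0542) nor XAF1 (adjusted p = 0.0518).

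The lines grown alone. Monocultures of both lines differed in most members: 21 of 35 were called higher in MRC5 and 7 higher in H196, where 61.7% of all tested genes were called (30.2% higher and 31.5% lower in MRC5). Cell line and medium changed together here, so their parts cannot be told apart. Whether the libraries of both lines were prepared together is not stated. TRIM22, a ligase, had 75.0 to 82.0 CPM in MRC5_Mo and at most 2 counts in any H196_Mo library. The DNA sensor IFI16 had 84.3 to 95.5 CPM in MRC5_Mo and 2 to 3 counts in H196_Mo, and GBP1 61.8 to 65.7 CPM against 4 to 5 counts. XAF1, which opposes an inhibitor of cell death, and MX2 had at most 1 count in H196_Mo. IFITM1 had 20.6 to 23.2 CPM in MRC5_Mo and 3 to 7 counts in H196_Mo. In the other direction, HERC5 had 18.9, 18.4 and 17.2 CPM in H196_Mo and 3 to 5 counts in MRC5_Mo. TRIM22, IFI16, GBP1, XAF1, MX2, IFITM1 and IFI44 passed the filter on low values through MRC5, and HERC5 through H196. A higher level in that line was therefore a condition of their being tested. With at least 10 counts required in every library, 13 members were called higher in MRC5 and 4 lower. OAS3 was higher in H196 (47.4, 44.4 and 45.0 CPM, log2 fold change of MRC5 against H196 -2.15 ± 0.11, adjusted p = 4.09e-17), as were IFIH1 (-2.16 ± 0.16), ISG20 (-2.06 ± 0.295), HERC6 (-1.91 ± 0.17), BST2 (-1.59 ± 0.32) and IFI6 (-0.69 ± 0.18). IFIT2 was called higher in MRC5 (0.81 ± 0.34, adjusted p = 0.0301), and the call was lost without replicate 1 of MRC5_Mo or replicate 1 or 2 of H196_Mo (adjusted p = 0.151, 0.0655 and 0.0852) and in DESeq2 (adjusted p = 0.0694). IFIT1 (-0.05 ± 0.25, adjusted p = 0.838) and DDX58 (-0.15 ± 0.11, adjusted p = 0.175) did not pass.

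**Figure D4:**
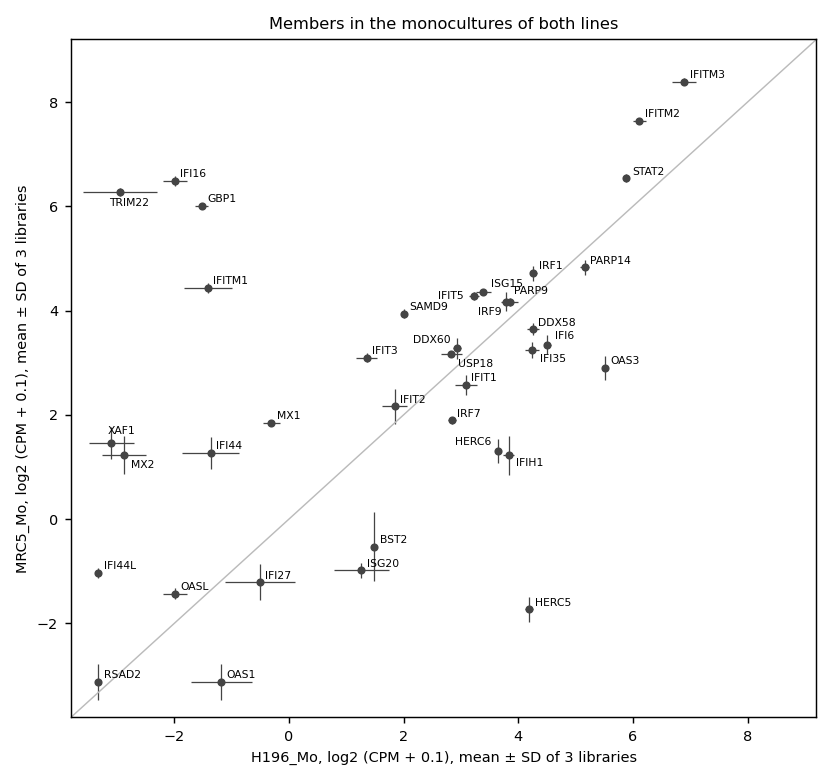
Mean of log2 (CPM + 0.1) with its SD over 3 libraries for the members listed for both lines, H196_Mo on the x axis and MRC5_Mo on the y axis, each scaled within its own table; the line marks equal values. IFI16, TRIM22, GBP1 and IFITM1 lie far above the line and HERC5 far below it.

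The rest of the pathway. A wider list of 79 ligands, receptors, kinases, sensors, inhibitors and further effectors placed the members in context. In MRC5, 48 of the 79 passed the filter, and in MRC5_CoH196 4 were called higher (IRF2, SP100, LGALS3BP and TRIM25) and 8 lower (among them SOCS1, CXCL10, GBP2, NMI, IKBKE, TLR3 and PTPN2), where 31.9% of all tested genes were called. No gene of the list was called in MRC5_CoH69, and NMI was called lower in H196_Co (1 of 43). Of 21 interferon ligands only IFNE passed the filter in either line, at 1.02 to 1.65 CPM in MRC5_Mo and 1.02 to 1.31 CPM in MRC5_CoH196. IFNB1, the fibroblast interferon, was not listed for MRC5 and had 1 count in 1 H196_Mo library and 0 in the other 5 H196 libraries. CCL5 had 1 to 9 counts in all 15 libraries and was not tested.

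The interferon receptors IFNAR1 and IFNAR2 and the kinases JAK1 and TYK2 moved within the size limit. IFNAR1 stood at 48.7, 43.5 and 44.5 CPM in MRC5_Mo and at 36.0, 39.3 and 38.3 CPM in MRC5_CoH196 (log2 fold change -0.27 ± 0.06, adjusted p = 0.000163), and IFNAR2 at 17.2, 18.7 and 18.3 CPM and at 21.0, 23.5 and 23.1 CPM (0.32 ± 0.07, adjusted p = 0.000456). JAK1 stood at 199, 199 and 191 CPM and at 264, 275 and 267 CPM (0.45 ± 0.04, adjusted p = 4.4e-10), and TYK2 at 77.5, 79.4 and 73.0 CPM and at 68.9, 63.0 and 64.5 CPM (-0.23 ± 0.05, adjusted p = 0.0003). None of these 4 overlapped between the groups. In H196_Co, IFNAR1 was at -0.25 ± 0.08 on the log2 scale (adjusted p = 0.025), and IFNAR2, JAK1 and TYK2 had values between -0.01 and 0.02 that did not pass. With H69, JAK1 passed the adjusted p at 0.15 ± 0.04, and IFNAR1, IFNAR2 and TYK2 did not pass.

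The largest changes of the wider list in MRC5_CoH196 were falls. SOCS1, the feedback inhibitor of the JAK kinases, fell from 13.4, 11.7 and 12.8 CPM to 2.50, 2.47 and 2.56 CPM (log2 fold change -2.33 ± 0.12, adjusted p = 3.36e-15). It stood at 10.2, 10.5 and 10 CPM in MRC5_CoH69 (-0.30 ± 0.09, adjusted p = 0.0358). GBP2, a relative of GBP1, fell from 19.1, 16.7 and 18.0 CPM to 6.19, 6.79 and 6.89 CPM (-1.44 ± 0.09, adjusted p = 1.5e-13) and stood at 23.4, 23.8 and 24.2 CPM with H69 (0.41 ± 0.07, adjusted p = 0.000401). The chemokine CXCL10 was called lower too, on 11, 7 and 6 counts in MRC5_Mo and 3, 1 and 0 counts in MRC5_CoH196, with 19, 15 and 13 counts in MRC5_CoH69. GBP1, GBP2, IRF1 and CXCL10 had their lowest fibroblast levels with H196 and their highest with H69, though CXCL10 did not pass against MRC5_Mo there (adjusted p = 0.135). These genes were grouped after their values were seen. CXCL10 passed the filter on low values through MRC5_CoH69, so a high level there was a condition of its being tested.

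Of the sensing genes IKBKE and TLR3 fell as well. IKBKE, a kinase that activates IRF3 and IRF7, went from 29.9, 27.3 and 27.8 CPM to 12.4, 11.9 and 12.8 CPM (log2 fold change -1.19 ± 0.07, adjusted p = 1.57e-13), and TLR3, a receptor for double-stranded RNA, from 1.48, 0.966 and 0.722 CPM to 0.455, 0.633 and 0.399 CPM (-1.09 ± 0.34, adjusted p = 0.00637). NMI, the partner of IFI35, went from 7.51, 8.49 and 5.47 CPM to 3.35, 3.39 and 2.11 CPM (-1.28 ± 0.17, adjusted p = 2.89e-07), and in H196 from 10.7, 9.26 and 12.2 CPM to 7.51, 6.54 and 6.99 CPM (-0.61 ± 0.125, adjusted p = 0.00179). STING1, the adaptor of DNA sensing, stood at 89.0, 90.9 and 92.0 CPM in MRC5_Mo and at 77.2, 71.8 and 72.5 CPM in MRC5_CoH196 (-0.30 ± 0.05, adjusted p = 4.1e-06), and at 8.75 to 12.8 CPM in H196. The DNA sensor CGAS stood at 4.19, 4.47 and 5.57 CPM and at 4.77, 3.91 and 4.67 CPM and did not pass (-0.09 ± 0.16, adjusted p = 0.608). TBK1, a kinase that activates IRF3, stood at 27.3, 27.4 and 24.5 CPM and at 30.1, 30.9 and 30.6 CPM (0.21 ± 0.06, adjusted p = 0.00475), and IRF3 at 40.1, 41.1 and 40.1 CPM and at 38.5, 32.4 and 33.8 CPM (-0.21 ± 0.06, adjusted p = 0.0027), both within the size limit. IRF2, which occupies the same element as IRF1 and mostly represses from it, rose from 17.0, 14.9 and 16.4 CPM to 35.1, 29.5 and 31.3 CPM (0.99 ± 0.08, adjusted p = 2.91e-11). It was chosen for mention after its values were seen, as the largest rise of the list.

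**Figure D5:**
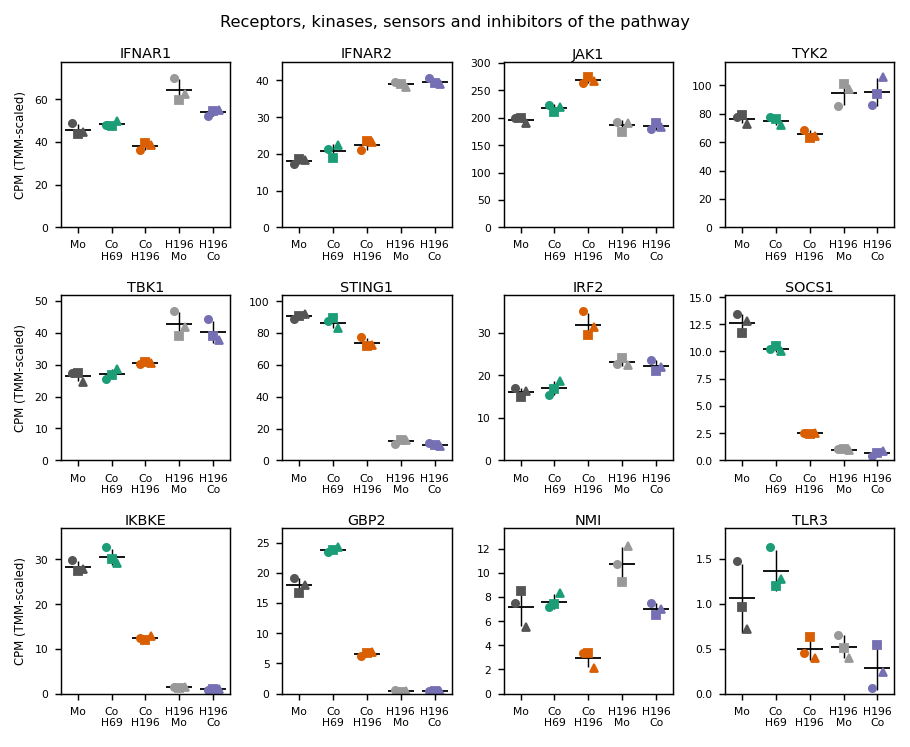
TMM-scaled CPM of 12 receptors, kinases, sensors, inhibitors and targets in all 15 libraries (circle, square and triangle for replicates 1, 2 and 3, with mean and SD), with MRC5 groups on the left and H196 groups on the right of each panel, scaled within each table. SOCS1, IKBKE and GBP2 are lower in all 3 libraries of MRC5 with H196 than in all other MRC5 libraries, and IRF2 is higher.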

How the data were processed

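Expression was measured by RNA-seq in 9 MRC5 and 6 H196 libraries. The authors cleaned reads with SOAPnuke 1.5.6 and aligned them to GRCh38.p13 with HISAT and to reference genes with Bowtie2, and the submitters' notes list HISAT2 2.1.0, Bowtie2 2.3.4.3 and RSEM 1.3.1. The deposited tables hold expected counts per gene, estimated by the authors without normalization, and FPKM values, which the authors scaled by gene length and library size. The tables list mRNA genes only, and whether counting used strand is not given in the sources used here. Another 18 (MRC5) and 12 (H196) per-library columns and the authors' own fold changes and p-values were not used.

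For the tests, R 4.3.3 and edgeR 4.0.16 took the rounded expected counts (filterByExpr, TMM scaling, quasi-likelihood test, two-sided, Benjamini-Hochberg adjustment over all tested genes) of the MRC5 libraries, of the H196 libraries, or of all 15 on genes listed for both lines. Genes were called at an adjusted p below 0.05 with a log2 fold change beyond 0.58 in size. SE is the absolute log2 fold change over the square root of F. CPM values are TMM-scaled. The scripts were tested on simulated data first.

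The members and lists were chosen with earlier results of these data known. Members called in co-culture against monoculture, STAT2, IRF1, IRF7 and IRF9 are given per library, as are, for MRC5_Mo and MRC5_CoH196, the fixed pathway genes IFNAR1, IFNAR2, JAK1, TYK2, IRF3, CGAS, STING1 and TBK1 (another is not reported here) and the 6 called pathway genes with the largest change. The others are given by counts, range, fold change or example. With 3 libraries per group, no exact permutation test on a single gene can give a p below 0.1. Alternatives were DESeq2 1.42.0, its size factors, limma 3.58.1 on log2(FPKM + 1) and log2(FPKM + 0.1), other count filters and fold limits, a replicate block, only the compared groups, and each library left out.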

Additional observations from a re-analysis of the deposited data

Results flagged for a closer look

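The change in co-culture differed between the lines for 13 members, by the interaction test of edgeR adjusted over 13585 genes. On the log2 scale the difference (MRC5_CoH196 against MRC5_Mo, minus H196_Co against H196_Mo) was 2.11 for IFIT2, 1.5 for MX1, 1.35 for IFI6, 1.07 for IFIT3, 1.05 for IFIT1 and 0.67 for SAMD9. It was -0.63 for OAS3, -0.68 for PARP9 and -1.08 for IFITM2. The other 4 entered the test through 1 line only, with 3.42 for OASL, 2.40 for HERC5, -1.25 for GBP1 and -2.66 for XAF1, and these values rest on few counts. The adjusted p ranged from 1.12e-10 (IFITM2) to 0.0405 (GBP1). HERC5 had 3 to 5 counts in MRC5_Mo, and OASL, GBP1 and XAF1 at most 7 counts in each H196 library. DESeq2 called neither GBP1 nor XAF1. The groups had 3 libraries, too few for a test of single libraries that stand apart.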

How the results depend on the processing

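With the fold limit removed, 15 members were called higher and 9 lower in MRC5_CoH196 against MRC5_Mo, 3 higher in MRC5_CoH69, 12 higher and 13 lower in MRC5_CoH196 against MRC5_CoH69, and 2 higher and 3 lower in H196_Co. Of all 12819 tested genes, 9522 (74.3%) passed in the first of these comparisons, 859 (6.7%) in the second and 9269 in the third. In H196_Co 2538 of 12806 genes passed. Shares of all genes were not counted under the other settings. With a limit of 1 the members called were 8 higher and 0 lower in MRC5_CoH196 against MRC5_Mo, 6 higher and 1 lower against MRC5_CoH69, 0 higher and 0 lower in H196_Co, and 3 lower for the difference between lines. Requiring at least 10 counts in every library, which leaves fewer genes, gave 6 higher in MRC5_CoH196 against MRC5_Mo, 5 higher against MRC5_CoH69, 13 higher and 4 lower in MRC5_Mo against H196_Mo, and 5 higher and 3 lower for the difference between lines. On log2(FPKM + 1), which shrinks the change of low genes, the numbers were 6 higher against MRC5_Mo, 4 higher against MRC5_CoH69, 0 lower in H196_Co, and 5 higher and 3 lower for the difference. On log2(FPKM + 0.1) they were 5 higher against MRC5_CoH69 and 1 lower in H196_Co. The FPKM scales put the median of all genes in MRC5_CoH196 against MRC5_Mo at -0.133 and -0.177, against -0.003 on TMM-scaled counts. DESeq2 called 9 higher and 4 lower in MRC5_CoH196 against MRC5_Mo (without IFIT3 and HERC6), 8 higher against MRC5_CoH69 (without BST2), 0 lower in H196_Co and 3 lower for the difference, and the cause was not tested. In H196_Co, both FPKM scales turned the sign of IFNAR2 (-0.02219 and -0.024) and TYK2 (-0.04792 and -0.04974), neither of which passed in any setting named here.

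Leaving out 1 library at a time gave 7 to 10 higher and 2 to 6 lower members in MRC5_CoH196 against MRC5_Mo, 0 to 1 higher in MRC5_CoH69, 5 to 10 higher and 4 to 8 lower in MRC5_CoH196 against MRC5_CoH69, 0 to 2 lower in H196_Co, and 7 to 9 higher and 3 to 6 lower for the difference between lines. Small values that changed sign were CGAS in MRC5_CoH196 (-0.1725 to 0.04004), IRF3 (-0.01664 to 0.02388), TYK2 (-0.05972 to 0.006006) and TBK1 (-0.02055 to 0.06946) in MRC5_CoH69, and CGAS (-0.1722 to 0.09562), STAT2 (-0.0625 to 0.01633), TYK2 (-0.07007 to 0.07968), IRF9 (-0.06551 to 0.1974) and JAK1 (-0.05752 to 0.01422) in H196_Co. A lone library left out kept the genes of the full fit. Of 1765 values of single genes under an alternative, 1616 kept direction and side of the threshold, 113 lost a call, 15 gained one and 21 changed sign. These values cover the members called in a comparison and, in co-culture against monoculture, the fixed genes. Gains by other members are not counted, and removing the fold limit could not lose a call. The replicate block left the number of members called the same in each comparison, for example 10 higher and 5 lower in MRC5_CoH196 against MRC5_Mo. Libraries of the same number had correlated deviations of -0.151 to 0.081, and those of different numbers -0.145 to 0.196. The main fit did not treat the samples as paired, but with 3 libraries per group this check cannot exclude pairing. MRC5_CoH196 was not set against H196_Co in this way. The FPKM alternative was not run for MRC5_Mo against H196_Mo, whose tables were normalized separately. Counts of 3 or fewer, as for TRIM22 in H196, limit what can be said of the low members.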
